A study of Mus musculus with 10 samples.

Results

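Connexins are the membrane proteins of gap junctions, and the 6 connexin genes Gja1, Gja4, Gja5, Gjb1, Gjb2 and Gjc1 were followed here in liver sinusoidal endothelial cells of mice with and without a deletion of Gata4. They were chosen by name as endothelial connexins (Gja4, Gja5, Gja1), hepatocyte connexins (Gjb1, Gjb2) and a mural cell connexin (Gjc1), and all 6 were found among the 24704 genes measured. The array probe sets are identified by Entrez gene number, which is 14609 for Gja1, 14612 for Gja4, 14613 for Gja5, 14618 for Gjb1, 14619 for Gjb2 and 14615 for Gjc1.

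The study compared 5 Gata4-LSEC-KO samples with 5 control samples, each one a pool of 3 mice. Knockout mice combined the transgene C57BL/6N-Tg(Clec4g-icre)1.1Sgoe, in which control sequences of the sinusoidal gene Clec4g drive a Cre recombinase, with the floxed allele of STOCK Gata4tm1.1Sad/J. Controls were siblings labelled WT. The labels do not say whether controls carried the transgene or a floxed allele, and they give neither age nor sex. Cells of both groups came from collagenase-perfused livers by a density gradient and a magnetic sort for CD146, the protein encoded by Mcam. Mcam itself differed between the groups, at 9.01 ± 0.10 in the knockout and 7.77 ± 0.19 in the control arrays (SD, n = 5, log2 scale; adjusted p = 0.000242 by limma), so the antigen used for sorting was not at the same RNA level in both groups.

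In a gap junction, a hexamer of connexins in one cell docks to a hexamer in its neighbour, and the channel lets ions and small metabolites pass between the cells. The products of Gja4 and Gja5 are known from arterial endothelium, that of Gja1 from many cell types including endothelium, smooth muscle and connective tissue cells, and that of Gjc1 from vascular smooth muscle and pericytes. Hepatocytes couple mainly through the products of Gjb1, found across the liver lobule, and Gjb2, found mainly near portal tracts.

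Sinusoidal markers were bright on all arrays. The mean log2 value of 18 measured markers, among them Clec4g, lay between 9.85 and 10.28 in the knockout and between 10.40 and 10.71 in the control arrays, and 7 of the 18 were lower in the knockout by the test used throughout (limma over all genes, Benjamini-Hochberg adjusted p under 0.05). The Gata4 probe set did not separate the groups (8.59 ± 0.24 against 8.71 ± 0.15, SD, n = 5; adjusted p = 0.742), and since nothing used here says whether its probes lie in the deleted part, it does not check the labels. Control replicate 1 stood apart, with correlations across genes of 0.920 to 0.944 with the other arrays against 0.969 to 0.988 among the other 9.

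None of the connexins passed the test. The count was 0 of 6, where 2.14% of all genes passed (529 of 24704), 1.3% as higher and 0.846% as lower in the knockout. That total of genes fell with most single arrays left out, to 287 without control replicate 5, 295 without knockout replicate 2, 317 without knockout replicate 4, 321 without control replicate 3 or 4, and 349 without knockout replicate 1, and was 737 without control replicate 1; the count of connexins was 0 in each. At an unadjusted p under 0.05 the count was 1 of 6, Gja4, where 13.6% of all genes reached that level. In 0 of 6 connexins were the values of the groups without overlap, as they were for 4.93% of all genes. The median log2 fold change (knockout minus control) of the 6 was 0.04, beside -0.02 over all genes, with 4 above 0 and 2 below 0. With each array scaled on the mean of 19 pan-endothelial genes, Gja1 (-0.11) and Gja5 (-0.080) were also below 0, and of all genes 178 were higher and 357 lower, in place of 320 and 209.

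**Figure D1:**
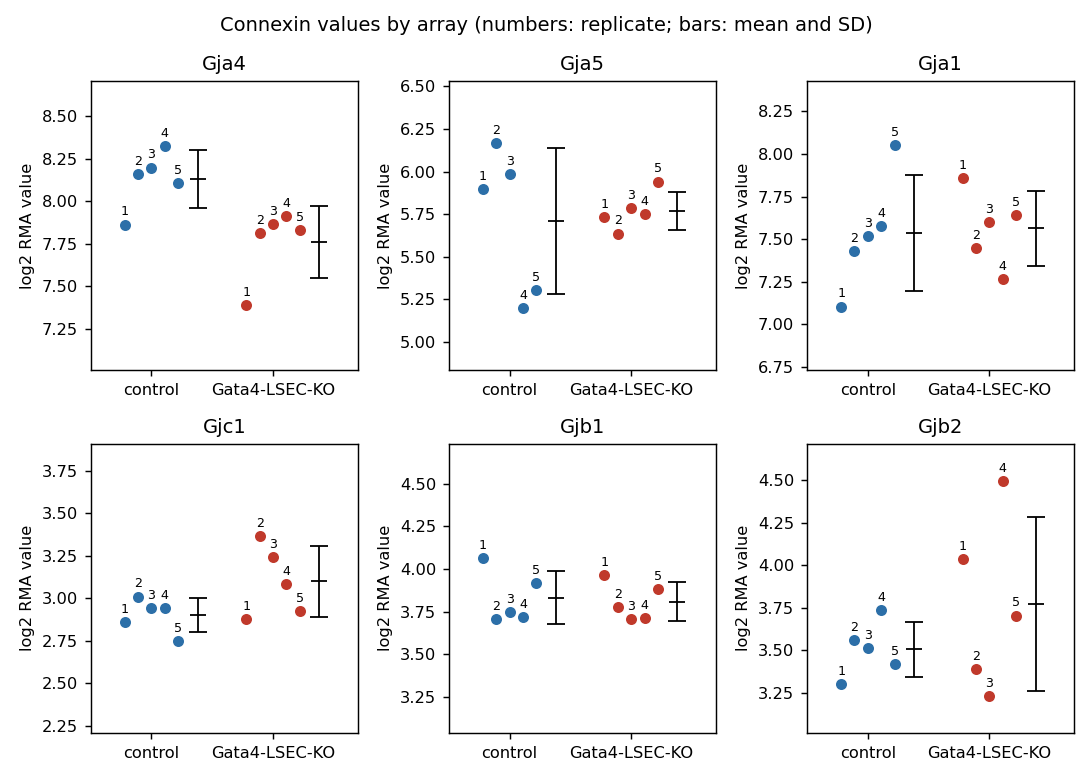
Log2 RMA value of each connexin (vertical axis, the same span in every panel) on each of the 5 control (blue) and 5 Gata4-LSEC-KO (red) arrays, numbered by replicate, with the mean and SD of each group in black. Gja4 was the connexin whose groups overlapped least, with control replicate 1 at 7.86 inside the knockout range, while the knockout arrays 1 and 4 stood above the rest for Gjb2.

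Gja4 encodes Cx37, an endothelial connexin of arteries, and had the lowest p of the 6. It read 7.39, 7.81, 7.86, 7.91 and 7.83 in knockout replicates 1 to 5 and 7.86, 8.16, 8.20, 8.32 and 8.11 in control replicates 1 to 5. Replicate 1 was the lowest array in both groups, and 4 of the 5 controls lay above every knockout array. The log2 fold change was -0.37 ± 0.13 (SE), which is 1.29-fold lower, with a 95% interval from -0.65 to -0.09 and an adjusted p of 0.207 by limma. An exact two-sided permutation test over the 252 ways to split the arrays gave p = 0.0238, where the smallest p it can give is 0.00794.

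Without control replicate 1 the Gja4 values of the groups no longer overlapped, and the log2 fold change was -0.44 ± 0.12 (adjusted p = 0.0933 by limma). Of all genes, 4.42% were lower without overlap in those 9 arrays. Without knockout replicate 1, the lowest array, the fold change was -0.28 ± 0.11 (adjusted p = 0.359 by limma). The fold change of Gja4 was below 0 in 22 of 22 alternative fits and passed the test in 0 of them, with adjusted p from 0.061 to 0.994. These fits reuse the same arrays, and an intensity trend, a filter on dim genes or a replicate block leaves it at -0.37 by design.

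Knockout replicate 1 also had one of the highest hepatocyte list means, 7.51. Its pan-endothelial list mean of 9.54 was lower than those of knockout replicates 3, 4 and 5 (9.86, 9.74 and 9.87). Knockout replicate 4 had a hepatocyte list mean of 7.52 and the highest Gja4 of the knockout arrays, 7.91. The lowest pan-endothelial mean of the knockout arrays, 9.50, was that of replicate 2, with Gja4 at 7.81. Over the 10 arrays, deviations of Gja4 from the group means had a Pearson's r of 0.59 with those of the pan-endothelial list mean. It was 0.64 with the sinusoidal, 0.61 with the macrophage and -0.25 with the hepatocyte list mean, and none of these was tested. In bulk samples such as these, fewer cells of a type and less RNA per cell cannot be told apart. Fitted with the mean of the hepatocyte list as a covariate, Gja4 was at -0.34 ± 0.14 (adjusted p = 0.379 by limma). With each array scaled on the 19 pan-endothelial genes it was at -0.51 ± 0.13 (adjusted p = 0.0635 by limma). That scaling moved the median of all genes from -0.02 to -0.16, so the lower value of Gja4 under it includes that common shift. The 19 genes include Mcam (1.24 ± 0.11) and Emcn (0.58 ± 0.12), which themselves passed the test as higher in the knockout.

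**Figure D2:**
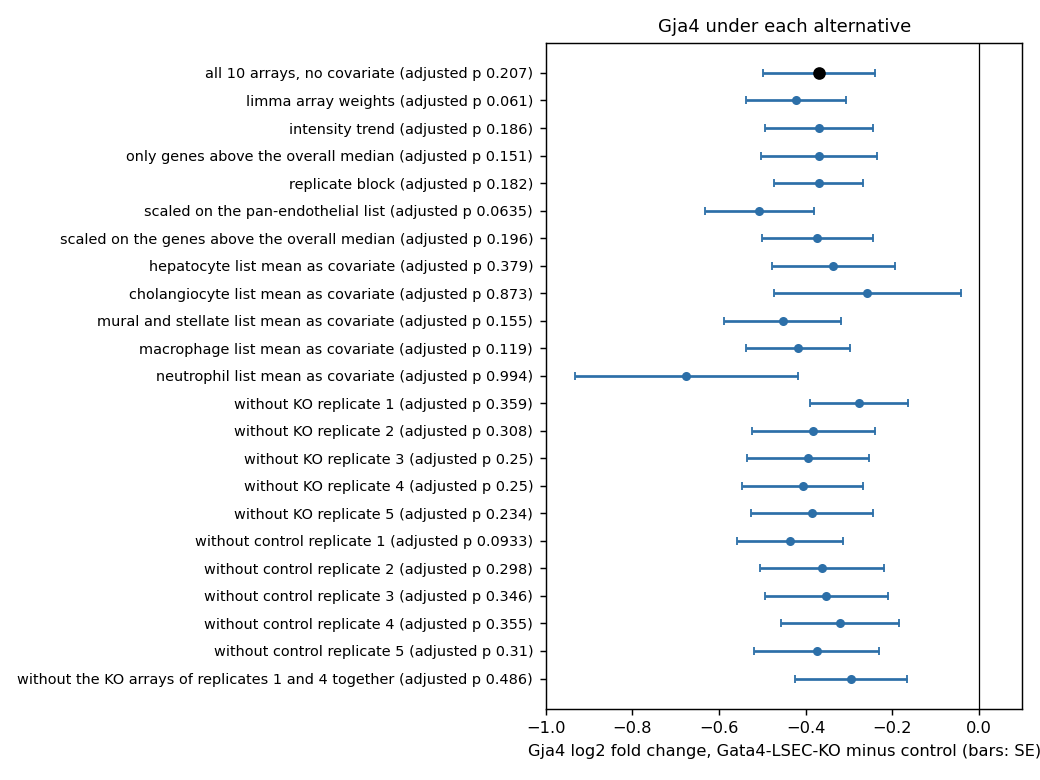
Log2 fold change of Gja4 (horizontal axis, knockout minus control, bars show the SE) with all 10 arrays (black) and under each of the 22 alternative fits (blue), with the adjusted p beside each label. All points lie below 0, from -0.68 with the neutrophil list mean as a covariate to -0.26 with the cholangiocyte list mean as a covariate, and no adjusted p is under 0.05.

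Gja5 encodes Cx40, which is found in arterial endothelium and in the atrial and conducting muscle of the heart. The knockout arrays read 5.73, 5.64, 5.78, 5.75 and 5.94, and the controls 5.90, 6.17, 5.98, 5.20 and 5.30. The controls fell on both sides of the knockout arrays: replicates 4 and 5 lay below all of them, replicates 2 and 3 above all of them, and replicate 1 within their range. The SD was 0.43 in the control and 0.11 in the knockout arrays. The log2 fold change was 0.06 ± 0.18 (adjusted p = 0.926 by limma), with a 95% interval from -0.35 to 0.46, which allows a change of up to 1.38-fold upward or 1.27-fold downward.

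The spread of Gja5 among controls ran beside that of other arterial genes. In control replicates 1 to 5 the mean of 26 arterial endothelial genes was 6.20, 6.61, 6.31, 6.12 and 6.10, so the 3 controls with more Gja5 also had the 3 higher list means. In the knockout arrays this order was not seen: replicate 4 had the highest list mean, 6.99, with Gja5 at 5.75. Gkn3, an arterial marker of that list chosen here after its values were seen, read 8.79 in control replicate 2, the array with the highest Gja5, and between 2.94 and 3.25 in the other controls.

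Gja1 encodes Cx43, the most widely expressed connexin. It read 7.86, 7.45, 7.60, 7.27 and 7.64 in the knockout and 7.10, 7.43, 7.52, 7.58 and 8.05 in the control arrays. The lowest and the highest of the 10 values were both controls, replicates 1 and 5. The log2 fold change was 0.03 ± 0.17 (adjusted p = 0.967 by limma), with a 95% interval from -0.35 to 0.40. In control replicate 1 the mean of the mural and stellate list was also the lowest of all arrays, 5.37 against 6.67 to 6.95 in the other controls. So were the macrophage mean (5.19 against 6.57 to 7.80) and the lymphatic endothelial mean (5.58 against 5.96 to 6.01). Knockout replicate 1, with the highest Gja1 of its group, had a mural and stellate mean of 6.77. Knockout replicate 2 had the highest such mean, 7.82, with Gja1 at 7.45. The part of these cells in the Gja1 values was not tested beyond fits with a list mean as a covariate. Those gave -0.10 for the mural and stellate and -0.04 for the macrophage list.

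The promoters of these 3 endothelial connexins are shown because the deleted gene encodes a factor that binds GATA sites. Each is the stretch of 250 bases before the transcription start, 5′ to 3′ on the strand of the gene, from RefSeq, build GRCm38.p6. Windows were given for 5 of the 6 connexins (8 windows, 4 of them of Gjb1), each with 250 bases before and 50 after the start. In the Gja1 sequence (chr10:56377050-56377299, plus strand) capitals mark a GATA hexamer and an AP-1 site, both read on the opposite strand. In the Gja4 (chr4:127314040-127314289, minus strand) and Gja5 (chr3:97032152-97032401, plus strand) sequences capitals mark the longest run that the 300-base windows of these 2 genes share.
Gja1: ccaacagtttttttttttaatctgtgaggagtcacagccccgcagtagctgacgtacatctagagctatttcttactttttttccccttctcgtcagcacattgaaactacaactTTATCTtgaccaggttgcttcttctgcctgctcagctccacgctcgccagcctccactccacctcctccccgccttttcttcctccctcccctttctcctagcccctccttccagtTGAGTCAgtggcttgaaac
Gja4: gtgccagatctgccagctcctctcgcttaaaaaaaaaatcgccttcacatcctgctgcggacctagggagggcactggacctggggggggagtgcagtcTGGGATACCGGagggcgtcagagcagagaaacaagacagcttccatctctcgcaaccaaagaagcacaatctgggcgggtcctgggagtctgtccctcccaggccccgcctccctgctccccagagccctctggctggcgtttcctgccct
Gja5: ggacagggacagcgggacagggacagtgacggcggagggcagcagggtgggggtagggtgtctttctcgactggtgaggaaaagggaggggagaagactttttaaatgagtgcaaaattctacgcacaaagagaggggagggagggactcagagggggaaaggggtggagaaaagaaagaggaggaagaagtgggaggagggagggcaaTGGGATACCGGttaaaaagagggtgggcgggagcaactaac

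Both strands of the windows were searched for 6 motifs. The GATA hexamer AGATAA was found in 1 window, that of Gja1, at 135 to 130 bases before the start, and 11.2% of all 32851 promoter windows hold it. The other GATA hexamer searched, TGATAA, which is in 9.05% of all windows, was in none of the connexin windows, nor was the E-box CACGTG (7.15%). The AP-1 motif TGACTCA, in 5.2% of all windows, was in that of Gja1 at 19 to 13 bases before the start. TGGGAA, the core bound by RBPJ of the Notch pathway (25.6% of all windows), and TTGTGG, a RUNX core (14.6%), were each in 1 window of Gjb1. None of these motifs overlapped another.

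The run shared by Gja4 and Gja5 was TGGGATACCGG, 11 bases long, on the strand of the gene in both. It lies 151 to 141 bases before the start of Gja4 and 41 to 31 bases before that of Gja5. It was found by comparing the windows and not by a motif fixed beforehand, and 4 of all 32851 windows (0.0122%) hold it, those of Gja4, Gja5, Dao and Vps4a. Gja1, whose window has the GATA hexamer, and Gja5 had fold changes near 0, and Gja4 lay lower without passing the test. A match describes the letters only.

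Gjc1 encodes Cx45, a connexin of vascular smooth muscle and pericytes. It read 2.87, 3.37, 3.24, 3.08 and 2.93 in the knockout and 2.86, 3.01, 2.94, 2.94 and 2.75 in the control arrays, so the 3 highest values were knockout arrays and the other 2 knockout arrays lay among the controls. The log2 fold change was 0.20 ± 0.12 (adjusted p = 0.517 by limma), with a 95% interval from -0.06 to 0.45. All 10 values lay under the array median of 3.71, and without detection calls such values cannot be told apart from background. Knockout replicate 2, with the highest Gjc1, also had the highest mural and stellate list mean, 7.82, where the other knockout arrays had 6.51 to 7.24. That array was also the highest of the knockout arrays for the neutrophil (5.89), cholangiocyte (6.68), macrophage (7.59) and lymphatic endothelial (6.69) list means.

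The hepatocyte connexins were measured in cells sorted as endothelium. Gjb1, which encodes Cx32, read 3.97, 3.78, 3.71, 3.71 and 3.88 in the knockout and 4.07, 3.71, 3.75, 3.72 and 3.92 in the control arrays. The groups covered nearly the same range. The log2 fold change was -0.02 ± 0.11 (adjusted p = 0.951 by limma), with a 95% interval from -0.26 to 0.21, the narrowest of the 6. Of the 10 values 3 lay under the array median of 3.71 and the rest at most 4.07, so here too signal cannot be told apart from background.

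Gjb2, which encodes Cx26, read 4.04, 3.39, 3.23, 4.50 and 3.70 in the knockout and 3.30, 3.56, 3.51, 3.74 and 3.42 in the control arrays. Knockout replicates 1 and 4 were above all other arrays, and the other 3 lay within or below the control range. Of the 10 values 7 lay under the array median, and those cannot be told apart from background. The log2 fold change was 0.27 ± 0.22 (adjusted p = 0.651 by limma), with a 95% interval from -0.21 to 0.74. Without those 2 arrays, an alternative chosen after the values were seen, it was -0.07.

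Markers of hepatocytes moved with Gjb2 on the arrays. The mean of 23 measured hepatocyte genes was 7.51 and 7.52 in knockout replicates 1 and 4, against 6.04 to 6.23 in the other 3 knockout and 6.09 to 6.54 in the control arrays. Albumin, Alb, read 11.11 and 11.04 in those 2 arrays and at most 10.19 in any other. Fitted with that mean as a covariate, the fold change of Gjb2 was 0.04 and that of Gjb1 -0.02. Gjb1, near background, read 3.97 in knockout replicate 1 and 3.71 in knockout replicate 4. Of the hepatocyte genes 2 rose and 2 fell by limma: Tat, an amino acid transferase (2.06 ± 0.40), and Hp, haptoglobin (1.60 ± 0.34), were higher, and the cytochrome P450 genes Cyp2c29 (-1.90 ± 0.26) and Cyp2e1 (-1.52 ± 0.31) were lower. Cyp2c29 passed with any single array left out. The calls of the other 3 each ended in 4 to 6 of the 10 fits that leave out an array: all 3 without knockout replicate 1, control replicate 4 or control replicate 5, with adjusted p by limma up to 0.097 (Hp without knockout replicate 4).

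**Figure D3:**
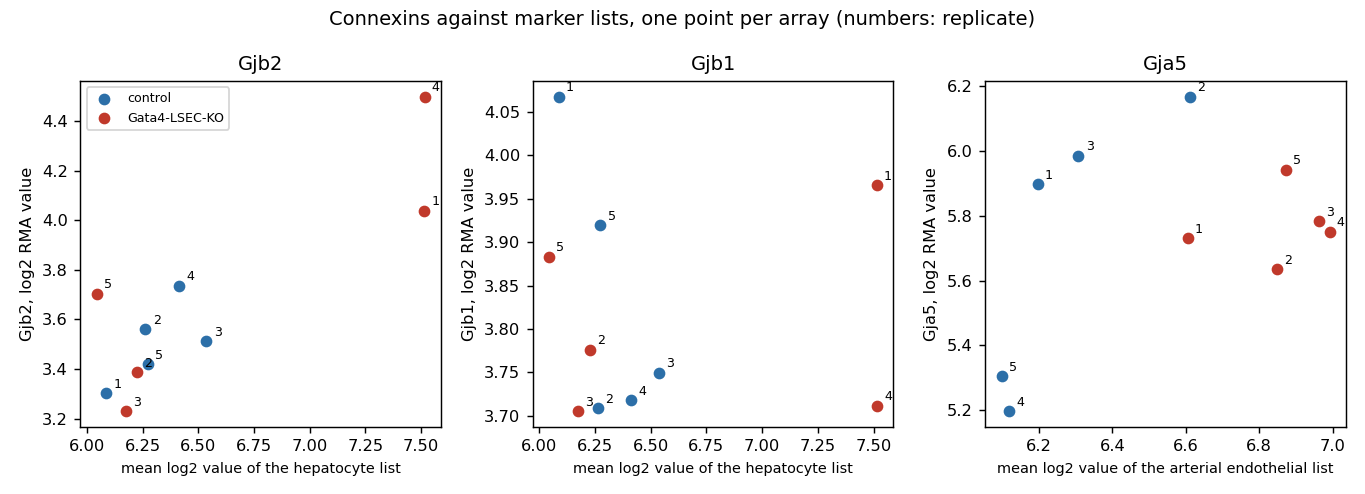
Log2 RMA values (vertical axes) of Gjb2 and Gjb1 against the mean of the hepatocyte list and of Gja5 against the mean of the arterial endothelial list (horizontal axes), 1 point per array, blue for control and red for Gata4-LSEC-KO, numbered by replicate. Knockout arrays 1 and 4 have the highest hepatocyte means and the highest Gjb2 but not both a high Gjb1, and among the controls the arrays with more Gja5 have the higher arterial means.

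The endothelial and the hepatocyte connexins thus had fold changes from -0.37 to 0.06 and from -0.02 to 0.27, and the difference between the 2 sets was not tested. The remaining genes of the family did not pass either. Of 13 other connexin and pannexin genes analysed, 0 passed, where 2.14% of all genes did, and the median of the 13 was 0.02 beside -0.02 over all genes. All but Panx1, Panx2 and Gjd3 had both group means under the array median of 3.71. At that level signal cannot be told apart from background, so the count of 0 says little about those genes. An unadjusted p under 0.05 was found for 2 of the 13, where 13.6% of all genes had one. Those with the smallest p were Panx1 (0.36 ± 0.15, adjusted p = 0.307 by limma), which encodes a channel protein that releases ATP, and Gjd3 (-0.57 ± 0.26, adjusted p = 0.361 by limma). Gjd3 read 6.29 in control replicate 1 and 4.83 to 5.29 in the other controls, against 4.42 to 5.05 in the knockout.

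**Figure D4:**
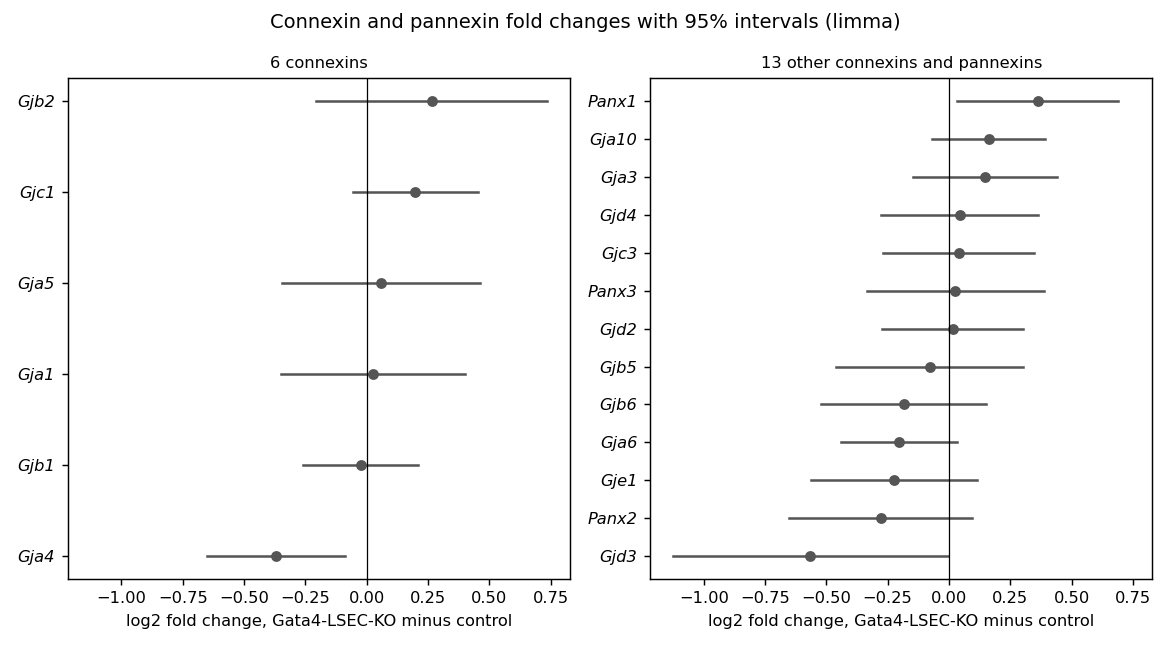
Log2 fold changes (horizontal axis, knockout minus control) with 95% intervals for the 6 connexins (left) and 13 other connexin and pannexin genes (right), from limma on all 10 arrays. No gene passed the test, and before adjustment over all genes the intervals of Gja4 (-0.65 to -0.09), Panx1 (0.03 to 0.69) and Gjd3, whose upper end is just under 0, leave out 0. Most genes on the right had group means under the array median of 3.71, where signal cannot be told apart from background.

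Among genes whose products bind, place or modify connexins, 2 of 22 measured passed and both were higher, where 1.3% of all genes were higher. The median of the list was 0.11. Caveolin 1, Cav1, the scaffold of caveolae, read 8.58, 8.61, 8.49, 8.63 and 8.90 in the knockout and 6.88, 7.36, 7.54, 7.02 and 7.13 in the control arrays. All knockout arrays were above all controls, with a log2 fold change of 1.46 ± 0.14 (adjusted p = 0.000318 by limma). Drebrin, Dbn1, which links Cx43 to actin, rose by 0.68 ± 0.12 (adjusted p = 0.0139 by limma). Dbn1 did not pass scaled on the pan-endothelial list (0.55, adjusted p = 0.0874 by limma) or with the cholangiocyte mean as a covariate (0.84, adjusted p = 0.201), and neither it nor Cav1 passed with the neutrophil mean as a covariate (0.55 and 1.32). Of all genes, 59 passed with the cholangiocyte and 0 with the neutrophil covariate, and the group means of neither list overlap. The other 20 did not pass, among them Tjp1 (0.00 ± 0.13), which encodes the scaffold ZO-1 at the edge of gap junction plaques, and the junctional cadherin Cdh5 (0.19 ± 0.15), both named after their values were seen.

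Of the 26 arterial endothelial genes, 4 were higher in the knockout, 0 lower and 22 did not pass, where 1.3% of all genes were higher and 0.846% lower, and the list had a median of 0.51 beside -0.02 over all genes. The 4 were the Notch target Hey1 (1.75 ± 0.34), the chemokine receptor Cxcr4 (1.61 ± 0.17), the semaphorin Sema3g (1.42 ± 0.25) and the chaperone Clu (1.27 ± 0.27). Their values and those of Gja4 and Gja5, the arterial connexins, are from the same arrays, on which Gja4 was at -0.37 and Gja5 at 0.06. The count of 4 depended on the arrays. It was 2 when knockout replicate 4, control replicate 3, control replicate 4 or control replicate 5 was left out, and 9 when control replicate 1 was. Cxcr4 and Sema3g passed with any single array left out. Hey1 did not pass in 5 of the 10, those 4 and the one that leaves out knockout replicate 3 (adjusted p up to 0.0635 by limma), and Clu did not in 6, those 4 and the ones that leave out knockout replicate 1 or 2 (up to 0.0909).

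Markers of other cells moved with Clu, which read 11.16, 11.25, 10.31, 10.86 and 9.79 in knockout replicates 1 to 5, where the mean of the cholangiocyte list was 6.14, 6.68, 4.93, 5.58 and 4.60. With that mean as a covariate Clu was at 0.20 (adjusted p = 0.917 by limma), while Hey1 (2.42, adjusted p = 0.147) and Cxcr4 (1.71, adjusted p = 0.0557) did not pass either and Sema3g did (2.11, adjusted p = 0.0437). With the neutrophil mean as a covariate none of the 4 passed, at 1.95, 1.45, 1.32 and 0.65 for Hey1, Cxcr4, Sema3g and Clu. Of all genes, 0 passed with that covariate and 59 with the cholangiocyte mean. The group means of neither list overlap, so these covariates cannot be told apart well from the group itself. Clu did not pass with the hepatocyte (1.11) or the mural and stellate mean (1.23) as a covariate or scaled on the pan-endothelial list (1.13).

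**Figure D5:**
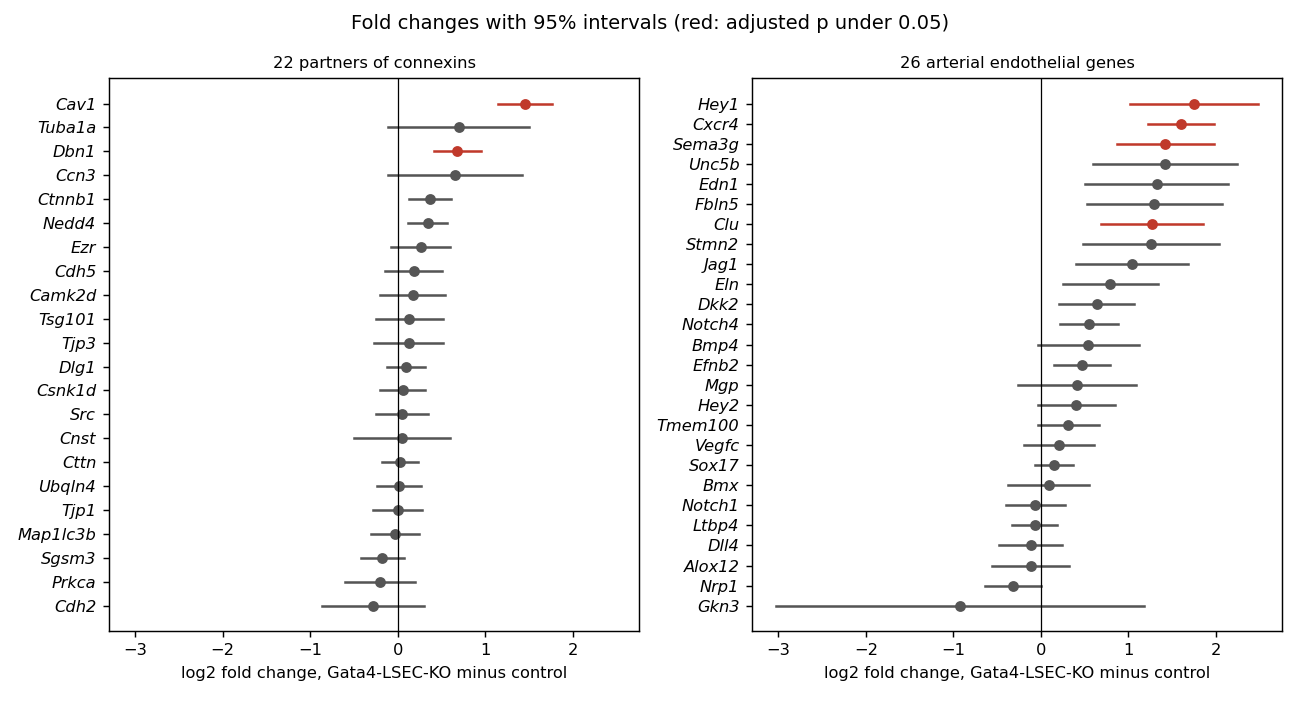
Log2 fold changes (horizontal axis, knockout minus control) with 95% intervals for 22 partners of connexins (left) and 26 arterial endothelial genes (right), from limma on all 10 arrays, with genes past an adjusted p of 0.05 in red. Cav1 and Dbn1 are red on the left and Hey1, Cxcr4, Sema3g and Clu on the right, all to the right of 0.

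Genes known to regulate endothelial connexins, such as Notch receptors, SOX and KLF factors and GATA factors, gave 0 of 23 past the test. Of all genes 2.14% passed and 13.6% had an unadjusted p under 0.05. The median of the 23 was 0.10, and 6 of them had an unadjusted p under 0.05. The smallest p were those of the receptor Notch4 (0.55 ± 0.15, adjusted p = 0.0958 by limma) and the transcription factor Sox18 (0.41 ± 0.13, adjusted p = 0.151 by limma). Among regulators of the hepatocyte connexins 0 of 9 measured passed, 2 had an unadjusted p under 0.05 and the median was 0.17. Onecut1 (0.81 ± 0.26, adjusted p = 0.16 by limma) and Foxa1 (0.92 ± 0.32, adjusted p = 0.209 by limma), both liver transcription factors, had the smallest p. The count of these 9 was 1 when knockout replicate 5 was left out.

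Markers of cells other than sinusoidal endothelium also differed between the groups, and beyond the fits given their part in the connexin values was not tested. The mean of 14 neutrophil genes was 4.24 to 5.89 in the knockout and 3.21 to 3.71 in the control arrays, with 7 of 14 higher, Lcn2, S100a8, S100a9 and Ngp the most (3.29 ± 0.40, 3.16 ± 0.53, 2.78 ± 0.43 and 2.72 ± 0.42). The mean of 12 cholangiocyte genes was 4.60 to 6.68 against 3.85 to 4.57, with 3 of 12 higher, Krt18 (2.25 ± 0.45), Bicc1 (1.71 ± 0.32) and Krt8 (1.44 ± 0.33). The mural and stellate list had 1 of 20 higher, Cspg4 (0.70 ± 0.15), and means of 6.51 to 7.82 against 5.37 to 6.95. In the macrophage list 1 of 14 was higher, Ccr2 (1.03 ± 0.22), with means of 6.65 to 7.59 against 5.19 to 7.80.

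Of 8 mesothelial genes 2 were higher, Wt1 (0.91 ± 0.17) and Gpm6a (0.87 ± 0.20), with list means of 4.38 to 4.80 against 4.11 to 4.41. Of 9 lymphatic endothelial genes 1 was higher, Nts (1.55 ± 0.25), with means of 6.06 to 6.69 against 5.58 to 6.01. Of 9 platelet genes 1 was lower, Clec1b (-1.37 ± 0.17), which liver endothelium also expresses, with means of 4.33 to 4.48 against 4.40 to 4.64. In the pan-endothelial list 2 of 19 were higher, Mcam (1.24 ± 0.11) and Emcn (0.58 ± 0.12), with means of 9.50 to 9.87 against 9.49 to 9.63. Of the 7 sinusoidal genes that fell, the largest changes were those of Clec4g (-0.76 ± 0.14), Ctsl (-0.73 ± 0.11), F8 (-0.65 ± 0.15) and Dnase1l3 (-0.64 ± 0.14). Of the genes of other cell types and of endothelium named here, Lcn2, S100a8, S100a9, Ngp, Bicc1, Nts, Clec1b, Mcam and Ctsl passed with any single array left out. The others lost their call in some of those fits, from Wt1, in the fits that leave out control replicate 4 or 5 (0.0578 at most, adjusted by limma), to F8, in all but the one without control replicate 1 (up to 0.116), and Krt8 reached the highest value (0.121 without knockout replicate 1).

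Among defining markers of these cells, Krt19 of bile ducts was 4.68 ± 0.74 in the knockout and 3.51 ± 0.22 in the control arrays (SD, n = 5; adjusted p = 0.0774 by limma). Acta2 and Myh11 of smooth muscle did not pass (0.75 ± 0.35 and 1.15 ± 0.32), nor did Lrat of stellate cells (0.20 ± 0.61), Clec4f of Kupffer cells (-0.15 ± 0.37), Pf4 of platelets (0.49 ± 0.21), Prox1 of lymphatic endothelium (0.86 ± 0.34) or Msln of mesothelium (0.05 ± 0.27).

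The genes whose deviations from the group means ran most like those of each connexin over the 10 arrays were listed by Pearson's r, 5 for each, as a description chosen from all genes and with no test. For Gjb2 they were Afmid, Kyat3, Nap1l2, Hoga1 and Mbl2 (r from 0.932 to 0.974, and from 0.928 to 0.988 without control replicate 1). Mbl2 encodes a mannose-binding lectin made by hepatocytes, and Afmid, Kyat3 and Hoga1 encode enzymes of amino acid metabolism. Mbl2 read 2.42 to 3.51 over the 10 arrays, and Nap1l2 had a mean of 1.73 in each group. Both lay under the array median of 3.71, where signal cannot be told apart from background. Afmid read 4.43 and 4.91 in knockout replicates 1 and 4 and 3.61 to 4.19 on all other arrays.

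For Gja5 they were Cela2a, Socs2, BC037704, Fbln2 and Mecom (r from 0.911 to 0.989). Mecom, a transcription factor known from arterial endothelium, read 7.04, 7.05, 6.96, 6.29 and 6.60 in control replicates 1 to 5, higher where Gja5 was higher. Fbln2, the matrix protein fibulin 2, was the only gene in the lists of the 6 connexins that passed the test between the groups (1.49 ± 0.23, adjusted p = 0.00666 by limma, and at most 0.0207 with any single array left out), while Gja5, whose deviations it matched, was at 0.06.

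For Gja4 they were Retreg2, Fuz, Tmem59, A730046J19Rik and Cdkl2 (r from 0.956 to 0.989), for Gja1 Vmp1, Cep85l, Cept1, Sec62 and Alad (0.921 to 0.967), for Gjb1 Creb1, Gm10610, Ddit3, Ankrd45 and 2210039B01Rik (0.933 to 0.963), and for Gjc1 Foxo3, Trbv23, Cyp1b1, Fzd7 and Ubqln5 (0.906 to 0.932). Group means of A730046J19Rik, Cdkl2, Gm10610, Ankrd45, Trbv23 and Ubqln5 lay under the array median of 3.71, as did those of BC037704 in the Gja5 list. At that level signal cannot be told apart from background. The arrays share their normalization, and control replicate 1 weighs on the values of Gjb1, where r was 0.874 to 0.939 without it.

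Along the chromosomes, several connexin genes lie next to each other. In the RefSeq gene table of GRCm38.p6, Gjb2 lies between Gja3 and Gjb6 on chromosome 14 among the measured named genes, and Gjb5 follows Gja4 on chromosome 4. Of 24 nearest measured neighbours of the 6 connexins, 0 passed the test, where 2.14% of all genes did. An unadjusted p under 0.05 was found for 3 of the 24, where 13.6% of all genes had one. Next to Gjb2, Gja3 was at 0.15 ± 0.13, Gjb6 at -0.18 ± 0.15 and Cryl1 at -0.61 ± 0.14, with the lowest adjusted p of the 24 (0.0537 by limma). Next to Gja4, Tmem35b (-0.31 ± 0.14), Dlgap3 (-0.20 ± 0.11), Gjb5 (-0.08 ± 0.17) and CK137956 (-0.20 ± 0.19) did not pass. The neighbours of Gja5 (Pdzk1, Gpr89, Acp6, Bcl9), Gja1 (Tbc1d32, Msl3l2, Hsf2, Serinc1), Gjb1 (Med12, Nlgn3, Zmym3, Nono) and Gjc1 (Ccdc43, Adam11, Higd1b, Eftud2) did not pass either.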

How the data were processed

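Total RNA of 10 samples was hybridised to 1-colour Affymetrix arrays. The authors' deposited values are log2 values made with RMA, per the submitters' processing notes, and the log2 scale was judged from the values. The sources used here do not give the genome build of the probes. Distributions were identical on 9 arrays and differed by at most 0.00186 on the tenth, so nothing was normalized again. Of 25428 probe sets 24705 had 1 gene symbol, 0 several and 723 none here; 24673 matched the RefSeq table, and 1 repeated symbol was represented by its brighter probe set, leaving 24704 genes.

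Groups were compared with limma 3.58.1 (R 4.3.3; lmFit, eBayes, two-sided) on all genes, without covariates or a filter on dim genes, and p-values were adjusted over all genes by Benjamini-Hochberg at 0.05. The number of arrays limits the precision, and each sample is a pool of 3 mice, so the p-values take in only the spread from pool to pool. The fit was checked on simulated data. The members and the 16 gene lists were chosen with earlier results of these data known. Genes named follow a rule: all connexins, up to 4 genes past the test or 2 with the smallest p per list, the 5 genes most like each connexin, chromosomal neighbours and defining markers. Genes named outside it are said to be so.

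Groups share replicate numbers, but same-numbered arrays did not deviate together (correlations from -0.16 to 0.04), so no block was used. Alternatives covered array weights, an intensity trend, a filter, a replicate block, 2 scalings, 5 covariates and left-out arrays. Connexin proteins were not analysed here.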

Additional observations from a re-analysis of the deposited data

Results flagged for a closer look

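Some arrays lay far from the other 4 of their group, by the gap to the nearest of them relative to the group's range (Dixon's criterion). Chance gives about 1 in 20 of such flags, and 7 of 78 group values examined were set apart, 4 of them in control replicate 1. Gja4 was 7.39 in knockout replicate 1 against 7.81 to 7.91 in the other knockout arrays. Gjb6, a connexin gene next to Gjb2, was 2.80 in knockout replicate 4 against 2.25 to 2.40. Panx2 was 4.62 in control replicate 1 against 3.73 to 3.93, and the mean of the other connexin and pannexin genes was 3.05 there against 2.70 to 2.77. Panx2 is itself part of that mean. Gjb6 and that mean lay under the array median of 3.71, where signal cannot be told apart from background. On the same array the mural and stellate mean was 5.37 against 6.67 to 6.95, and the lymphatic endothelial mean was 5.58 against 5.96 to 6.01. Gkn3 was 8.79 in control replicate 2 against 2.94 to 3.25 in the other controls.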

How the results depend on the processing

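None of the 6 connexins passed the test under any alternative run. The sign of Gja4 held in all of them, and that of the others turned in some. Gja1 was at -0.081 with array weights, -0.11 scaled on the pan-endothelial list, -0.10 and -0.040 with the mural and stellate or macrophage list mean as a covariate, and -0.082 to 0.16 with single arrays left out. Gja5 was at -0.080 scaled on the pan-endothelial list and -0.070 to 0.17 with single arrays left out. Gjb1 was at 0.015 with array weights, 0.0060, 0.043, 0.0027 and 0.17 with the cholangiocyte, mural and stellate, macrophage or neutrophil list mean as a covariate, and -0.063 to 0.034 with single arrays left out. Gjb2 was at -0.065 without knockout replicates 1 and 4, chosen after seeing the data, and Gjc1 at -0.17 with the neutrophil list mean as a covariate. Gata4 was at 0.18 with the cholangiocyte list mean as a covariate. With single arrays left out, Gja4 ranged from -0.44 to -0.28, Gjb2 from 0.08 to 0.40 and Gjc1 from 0.13 to 0.25. The causes were not tested. Gjb2 and Gjc1 have no value under the filter on dim genes.

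The count of all genes past the test, 529, became 1070 with array weights, 325, 59 and 0 with the hepatocyte, cholangiocyte or neutrophil list mean as a covariate, 170 without knockout replicates 1 and 4, and 287 to 737 with single arrays left out. The neutrophil means of the groups do not overlap, and neither do the cholangiocyte means, 4.60 to 6.68 in the knockout against 3.85 to 4.57. The replicate block, tried although the numbers did not pair the samples (0 of 5 pairs above a correlation of 0.1, 0 knockout arrays best matched by their own number), gave 275. With the block Dbn1, Hey1 and Sema3g had adjusted p of 0.0805, 0.10 and 0.0794 by limma, and the count of arterial genes was 3. Scaling on the pan-endothelial list gave 178 higher and 357 lower in place of 320 and 209. The count of partners of connexins, 2, was 1 with the replicate block, that scaling or the cholangiocyte covariate, 0 with the neutrophil covariate and 2 with any single array left out. That of arterial genes, 4, was 10 with array weights, 1, 7 and 0 with the cholangiocyte, macrophage or neutrophil covariate and 2 to 9 with single arrays left out. Array weights gave 1 for the endothelial and 1 for the hepatocyte connexin regulators, the latter 0 to 1 with single arrays left out.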

Other observations

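The gene whose array deviations had the highest correlation with those of Gja5 was Cela2a. It read 5.53, 5.97 and 5.47 in control replicates 1 to 3 and 3.96 and 4.02 in control replicates 4 and 5, beside Gja5 values of 5.90, 6.17, 5.98, 5.20 and 5.30. The knockout arrays, at 4.05, 3.70, 4.29, 4.05 and 4.58, lay nearer to the lower controls. Its log2 fold change was -0.86 ± 0.38 (adjusted p = 0.344 by limma).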
